A study of Homo sapiens with 14 samples.

Results

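Gene expression after RBI2 was compared with gene expression after CX-5461 in MDA-MB-231 cells, with both compounds at 5 µM and both labelled 30 min. The comparison holds 4 of the 14 libraries, 2 replicates for each compound, chosen by the compound and time in their labels. MDA-MB-231 is an established human breast cancer line. The 10 other libraries are 2 of the control, which the study's methods call untreated and its results call DMSO-treated, and 2 for each compound at each of the labels 10 min and 120 min. Nothing in the labels says that replicates came from separate cultures, so the p-values below measure the spread between these libraries, which may be technical. Times are given as the labels state them. The names under which the quantifications were deposited carry other time marks than the labels, and both compounds carry the same mark, 10, here.

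Ribosomes are made in the nucleolus from rRNA, which RNA polymerase I (Pol I) transcribes, and from ribosomal proteins, whose mRNAs RNA polymerase II transcribes. Transcription by Pol I is the step that CX-5461 is known to block. RBI2 is a small molecule that lowers pre-rRNA, and the comparison asks how the mRNAs of cells differ between the compounds at an early time. The libraries were made from poly(A) RNA and rRNA reads had been removed before quantification, so rRNA itself is not part of these values. Levels are given in CPM, a gene's counts as a share of its library on a common scale, after TMM scaling, which sets the bulk of genes to no difference, and a log2 difference is RBI2 minus CX-5461.

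The 14 libraries held between 14112299 and 24849354 estimated reads. The RBI2 libraries held 21107808 and 14697988 reads and the CX-5461 libraries held 14892514 and 15582676. Mitochondrial genes took between 8.05% and 9.46% of the reads in these 4 libraries, against 20.4% in control replicate 2. All 13 markers of mesenchymal basal breast cancer cells were above 1 CPM in the 4 libraries, with vimentin (VIM) between 2987 and 3269 CPM. Of 13 luminal and hormone receptor markers, 7 were above 1 CPM, and PGR and AGR2 had no reads in the 4 libraries. Of 10 blood cell markers, which are leukocyte genes and the red cell gene HBB, only CD68 was above 1 CPM.

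The replicates of CX-5461 differed more from each other than those of RBI2, and in a way that followed transcript length. Replicates lay over 2-fold apart for 629 genes with CX-5461 and for 471 with RBI2. For each library, the median deviation of coding genes with an average transcript length of up to 750 bases was set against that of coding genes over 5000 bases. Deviations were taken from each gene's mean log2 level over the 4 libraries compared. This difference was 0.38 in CX-5461 replicate 2, the highest of the 14 libraries, and -0.06 in CX-5461 replicate 1. In the RBI2 replicates it was -0.13 and -0.18. Outside the comparison it was of the opposite sign in control replicate 2 (-0.61) and in CX-5461 120 min replicate 2 (-0.62). The size of each value depends on the libraries used as reference. Among the 4 libraries compared, CX-5461 replicate 2 stood apart, and the median of each gene family is given with and without it.

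Few single genes differed. Of 15426 genes tested, 2 passed the test, at an adjusted p under 0.05 and a log2 difference of at least 1 in either direction (0.013% of genes tested; edgeR quasi-likelihood test, Benjamini-Hochberg adjustment). Both were lower with RBI2, and without the limit on the fold the count was also 2. At an unadjusted p under 0.05 the count was 1202 genes (7.79%), of which 845 were higher with RBI2 (5.48%) and 357 lower (2.31%). Both RBI2 libraries lay above both CX-5461 libraries for 23% of genes and below both for 18.1%. The count of genes that passed was 23 when only the 4 libraries entered the model, 10 by DESeq2 and 1 without CX-5461 replicate 2.

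H4C3, which encodes a replication-dependent histone H4, was the coding gene that passed (chr6:26103933-26104337, GRCh38). Its level was 0.608 and 0.594 CPM in the RBI2 libraries and 4.19 and 4.71 CPM in the CX-5461 libraries. The log2 difference was -2.87 ± 0.30 (SE), with an adjusted p of 0.0132 by edgeR's quasi-likelihood test. The control libraries, at 1.62 and 1.12 CPM, lay between the compounds. At the label 10 min H4C3 was also lower with RBI2, at 0.364 and 0.680 CPM against 1.67 and 1.17 CPM with CX-5461 (log2 difference -1.43, adjusted p = 0.0477, edgeR). At the label 120 min the levels met, at 3.19 and 2.68 CPM with RBI2 and 3.26 and 3.24 CPM with CX-5461. H4C3 lost its edgeR call when any single library of the comparison was left out, while its log2 difference stayed between -2.99 and -2.79. DESeq2 gave H4C3 no adjusted p. Replication-dependent histone mRNAs end without a poly(A) tail, and poly(A) selection samples them only in part.

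The other gene that passed was ENSG00000258964, a lncRNA gene (chr14:61734138-61776260, plus strand). It had no reads in either RBI2 library and stood at 10.1 and 6.55 CPM in the CX-5461 libraries. With a floor of 3 counts over the RBI2 group, it was at least 101-fold lower with RBI2 (adjusted p = 0.00428, edgeR quasi-likelihood test). The other 10 libraries held between 4.84 and 19.4 CPM. The gene overlaps HIF1A and SNAPC1 on the same strand, and Salmon assigns reads among overlapping transcripts by estimation, so this value is uncertain. Without RBI2 replicate 1 its adjusted p was 0.0669 by edgeR.

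The genes with the smallest p-values on the side higher with RBI2 did not pass in the edgeR fit reported here. Most passed by DESeq2 at any fold, and their values are given as a description. FOXK1 encodes a forkhead transcription factor (chr7:4682295-4771442) and was the clearest of them. Its level was 141 and 152 CPM with RBI2 against 70.4 and 65.0 CPM with CX-5461. The log2 difference was 1.11 ± 0.17 (SE). The adjusted p was 0.155 by edgeR's quasi-likelihood test, 0.00787 by the same test on the 4 libraries alone and 9.6e-07 by DESeq2. By edgeR it was 0.0612 with GC content and length fitted out and 0.261 with the replicate number as a block. With 1 library left out the log2 difference stayed between 1.05 and 1.15. Against the control, FOXK1 was higher with RBI2 by 1.19 (adjusted p = 0.0393, edgeR), and with CX-5461 the value was 0.08 (adjusted p = 0.780, edgeR). FOXK1 was also higher with RBI2 at the labels 10 min (0.91, adjusted p = 0.0132) and 120 min (1.21, adjusted p = 0.0067) by edgeR, which use other libraries.

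NOL9, a polynucleotide kinase of the nucleolus that acts in pre-rRNA processing, stood at 86.8 and 82.9 CPM with RBI2 and 53.3 and 48.0 CPM with CX-5461. Its log2 difference was 0.74 ± 0.13 (SE) with an adjusted p of 0.253 by edgeR. The control libraries, at 54.1 and 57.2 CPM, were close to CX-5461. CASTOR2, a gene of the family of arginine sensors upstream of mTORC1, stood at 17.9 and 18.2 CPM with RBI2 and 9.99 and 11.6 CPM with CX-5461. CASTOR2 was higher than in the control with RBI2, by 1.10 (adjusted p = 0.0226, edgeR). TNRC18, a chromatin protein gene, stood at 163 and 173 CPM with RBI2 and 115 and 104 CPM with CX-5461. At the label 120 min all of FOXK1, NOL9, CASTOR2 and TNRC18 passed at any fold by edgeR, with log2 differences from 0.71 to 1.22, as did 16.1% of all genes there.

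The remaining genes of this side were smaller or less certain. COL27A1, a fibrillar collagen, stood at 49.1 and 49.8 CPM with RBI2 and 37.1 and 36.6 CPM with CX-5461. PLEKHA2, which encodes a phosphoinositide-binding adaptor, had a log2 difference of 0.44. SNHG4, a snoRNA host gene, had a difference of 0.59 and overlaps MATR3 on its strand. GABPB1-AS1, a lncRNA antisense to GABPB1, had a difference of 0.57 that became -0.45 when the average transcript length of each library entered the model. NBPF14 (0.57) belongs to a family of near-identical copies and overlaps NOTCH2NLB, which makes its reads hard to place. MFSD14CP and the unnamed lncRNA genes ENSG00000290385 and ENSG00000291068 had differences of 0.52, 1.66 and 0.71. By DESeq2, FOXK1, NOL9, CASTOR2, TNRC18, COL27A1, PLEKHA2, SNHG4, GABPB1-AS1, NBPF14, MFSD14CP and ENSG00000290385 passed at any fold, and ENSG00000291068 did not. FOXK1, NOL9, TNRC18, SNHG4 and ENSG00000290385 passed at any fold by edgeR on the 4 libraries alone, and the others did not.

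On the lower side, RPS15A had the smallest p-value among the genes that did not pass in the edgeR fit reported here. It encodes a protein of the small ribosomal subunit. It lies at chr16:18781295-18790383 and overlaps ENSG00000260342 on its strand. Its level was 293 and 312 CPM with RBI2 and 405 and 430 CPM with CX-5461, a log2 difference of -0.46 ± 0.07 (SE, adjusted p = 0.151, edgeR). The 10 other libraries held between 359 and 436 CPM, so both RBI2 libraries at this label were below every other library. Against the control, RPS15A was lower with RBI2 by a log2 value of -0.51 (adjusted p = 0.0263, edgeR). Its difference between the compounds was more negative at 30 min than at the mean of the labels 10 min and 120 min, by a log2 value of -0.54 (adjusted p = 0.0435, edgeR).

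RPL9, of the large subunit, stood at 289 and 294 CPM with RBI2 and 379 and 385 CPM with CX-5461. The other 10 libraries held between 320 and 443 CPM, again without overlap. RPL9 was lower than in the control with RBI2, by a log2 value of -0.55 (adjusted p = 0.0286, edgeR). RFC1, the large subunit of the clamp loader of DNA replication, stood at 75.2 and 81.9 CPM with RBI2 and 117 and 115 CPM with CX-5461. The log2 difference was -0.56 ± 0.10 (SE), with an adjusted p of 0.253 by edgeR's quasi-likelihood test, 0.0413 on the 4 libraries alone, 0.00935 with GC content and length fitted out, 4.5e-05 by DESeq2, and from 0.397 to 1 by edgeR with 1 library left out. Its log2 difference from the control was -0.69 with RBI2 (adjusted p = 0.0403, edgeR) and -0.13 with CX-5461 (adjusted p = 0.397, edgeR). The RNA helicase gene DHX36 had a difference of -0.32 and RPL26L1, a paralog of RPL26, one of -0.29. RPL17 (-0.32) overlaps the readthrough gene RPL17-C18orf32, and ENSG00000144785 and ENSG00000286905 (-2.67 and -0.84) overlap other coding genes, so their reads cannot be placed with certainty. By DESeq2, DHX36 and ENSG00000144785 passed at any fold, and RPL26L1 and ENSG00000286905 did not. PABPC1, the cytoplasmic poly(A)-binding protein, ATXN2 and GAPDH did not pass, with differences of -0.18, 0.14 and -0.10.

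**Figure D1:**
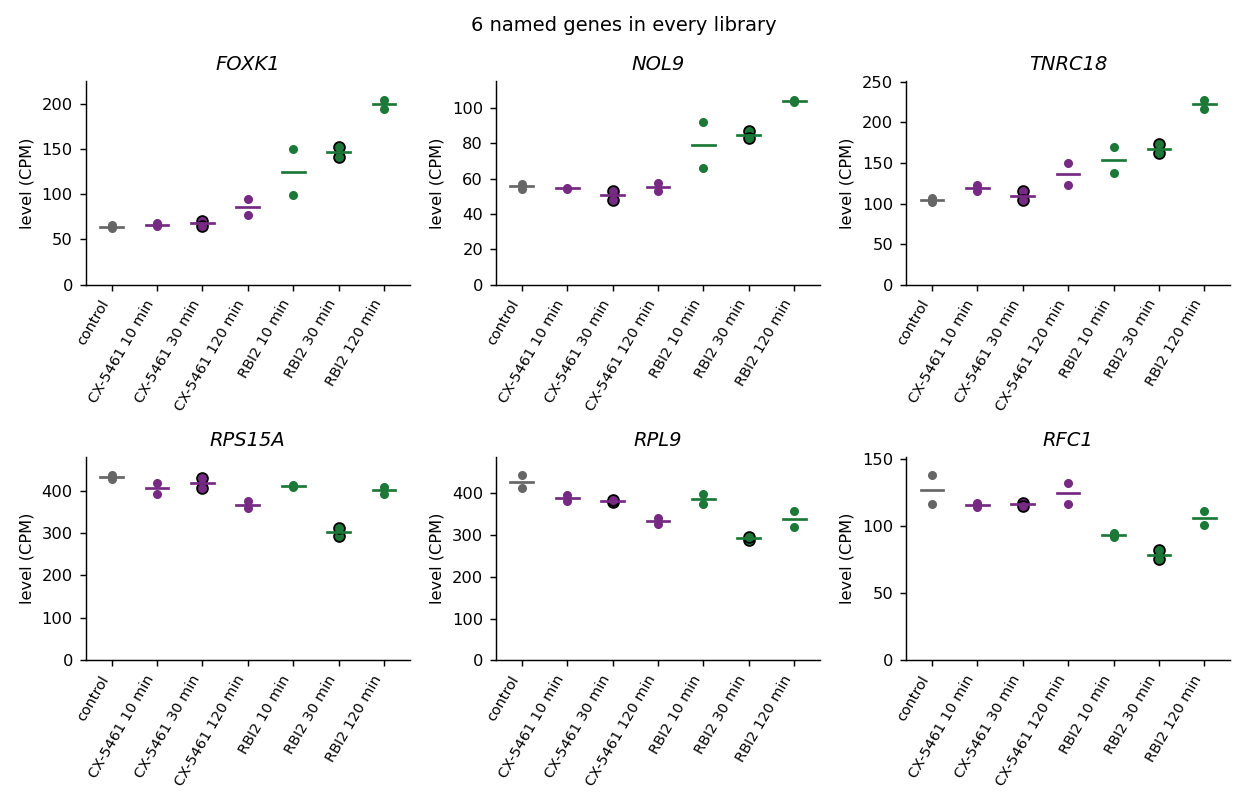
Level in CPM (linear axis from 0) of 6 genes in all 14 libraries by group; points are libraries, horizontal lines are group means, and black outlines mark the label 30 min. FOXK1, NOL9 and TNRC18 were higher in both RBI2 libraries than in both CX-5461 libraries at 30 min, and RPS15A, RPL9 and RFC1 were lower in the RBI2 libraries at 30 min than in any other library.

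The cytosolic ribosomal proteins, the structural proteins of the cytoplasmic ribosome, had the lowest median of the gene lists with all 4 libraries. All 81 genes had a lower fitted level with RBI2 (48.1% of all genes), with a median log2 difference of -0.24, against 0.01 over all genes tested. None passed the adjusted test in the edgeR fit reported here, where the smallest adjusted p was 0.151. By DESeq2, 6 of the 81 passed at any fold, all lower with RBI2 (0.407% of the genes to which DESeq2 gave an adjusted p), namely RPS15A (adjusted p = 7.0e-07), RPL9 (4.5e-05), RPL27 (0.00847), RPS20 (0.0132), RPL17 (0.0152) and RPL37A (0.0426). By edgeR without the control libraries, RPS15A (adjusted p = 0.0240) and RPL27 (0.0343) passed (0.123% of all genes), and with only the 4 libraries 0 passed (0.3% of all genes), with a smallest adjusted p of 0.0808. Both RBI2 libraries lay below both CX-5461 libraries for 74 of the 81, against 18.1% of all genes. Among other coding genes from 500 to 750 bases with a mean over 50 CPM, the share was 67.7%. At an unadjusted p under 0.05, 37 of the 81 were lower and 0 were higher, against 2.31% of all genes lower. The genes were chosen as a family with earlier results of these data known, and their mRNAs share libraries and are not independent of each other.

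Their summed level was 58018 and 58908 CPM with RBI2 and 64245 and 73903 CPM with CX-5461. The RBI2 libraries were below both, and CX-5461 replicate 2 was the highest of the 14 libraries. The control libraries held 66754 and 57033 CPM and so spanned the RBI2 values. Without CX-5461 replicate 2 the median difference was -0.13, and without CX-5461 replicate 1 it was -0.39. Both RBI2 libraries lay below CX-5461 replicate 1 for 74 of the 81 genes, against 38.4% of all genes. The direction was therefore the same against either CX-5461 library, while the size depended strongly on which of them was kept. The family was no longer lowest without CX-5461 replicate 2, where the mitotic genes had a median of -0.15. In bulk RNA, fewer cells of a kind and less RNA per cell cannot be told apart.

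The mRNAs of ribosomal proteins are known for a run of pyrimidines at their start, the 5′ terminal oligopyrimidine tract, through which mTOR controls their translation. The windows of 30 bases around the start site are shown for the 6 matched genes with the largest differences that held a run of pyrimidines. They were chosen after their values were seen. They come from RefSeq promoters on GRCh38.p14, each from 10 bases before the start to 20 bases from it on, 5′ to 3′ on the gene's strand. Capitals mark the longest run of C and T of at least 8 bases. A run was counted at any place in the window, and those of RPL27 and RPL9 begin after the start.
RPL27 (chr17:42998409-42998438, plus strand): gtgaaaggttagcggaagtgTCCTTCTTTC
RPS10 (chr6:34426050-34426079, minus strand): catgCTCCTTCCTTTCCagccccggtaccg
RPL37A (chr2:216498834-216498863, plus strand): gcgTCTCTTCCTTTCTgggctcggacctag
RPL9 (chr4:39458903-39458932, minus strand): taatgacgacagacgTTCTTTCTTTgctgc
RPS3 (chr11:75399508-75399537, plus strand): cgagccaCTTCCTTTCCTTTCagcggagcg
RPS12 (chr6:132814559-132814588, plus strand): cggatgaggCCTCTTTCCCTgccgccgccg

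Of the 65 ribosomal protein genes matched to this table, 51 held such a run (78.5%), against 12.6% of all 27305 promoters. The search was on the gene's strand only and for any mix of C and T at any place in the window. These are therefore not counts of terminal tracts. The median log2 difference was -0.24 for ribosomal protein genes with the run and -0.22 for those without it. Among other coding genes of up to 750 bases, the median was -0.18 with the run and -0.19 without it. Genes with and without the run were thus close to each other in these medians, and a match in sequence is a description, not a site.

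RPL27 stood at 485 and 549 CPM with RBI2 and 701 and 765 CPM with CX-5461, a log2 difference of -0.50 ± 0.10 (SE, adjusted p = 0.361, edgeR). RPL37A stood at 486 and 519 CPM with RBI2 and 596 and 725 CPM with CX-5461. RPL6 and RPS27L, the latter a p53-induced paralog of RPS27, had the smallest differences, -0.09 and -0.10. For 7 genes the groups overlapped, namely RPS28, RPS26, RPL19, RPL10, RPL11, RPL36AL and RPL21. Ribosomal protein mRNAs have many processed pseudogenes, between which reads may be shared. The 270 processed pseudogenes tested had a median difference of 0.00 with and without CX-5461 replicate 2, and 54 were above and 50 below (20% and 18.5%, against 23% and 18.1% of all genes). Their summed level was lower with RBI2, at 3183 and 3167 CPM against 4046 and 3650 CPM with CX-5461.

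**Figure D2:**
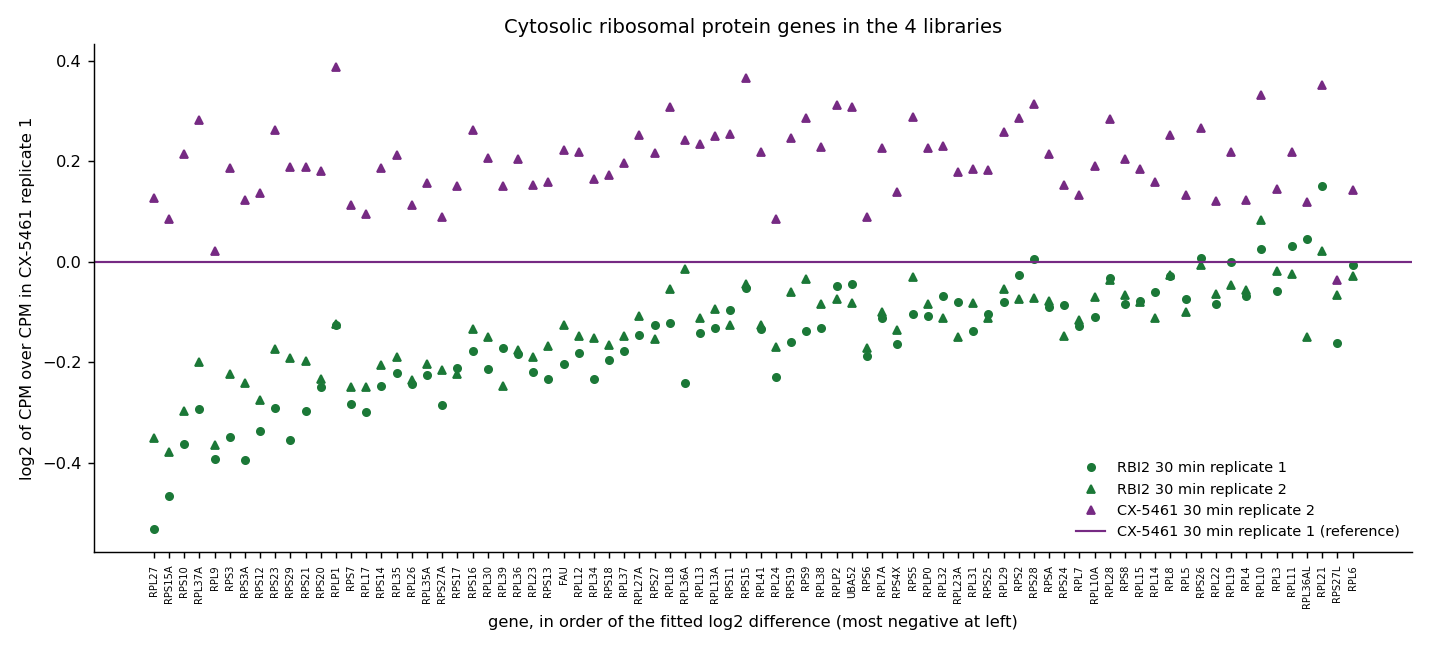
Log2 ratio of the level in each library to CX-5461 replicate 1 (the line at 0) for 80 of the 81 cytosolic ribosomal protein genes, in order of the fitted difference. Both RBI2 libraries were below the line for 73 of those drawn, and CX-5461 replicate 2 was above it for each of them but RPS27L.

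At the other labels the median of the family was nearer 0, at -0.06 at 10 min and 0.05 at 120 min. At 10 min 76 of the 81 genes were still lower with RBI2 (48.3% of all genes), and at 120 min 63 were higher (50.7% of all genes). In the edgeR fit reported here none of the 81 passed at any fold at these labels or at 30 min. Of all genes, 3.06% passed at 10 min and 16.1% at 120 min. Against the control, the median was -0.07 with RBI2 and 0.18 with CX-5461 at 30 min, and these values share the control libraries. The median of the difference between the 30 min contrast and the mean of the other contrasts was -0.25, and RPS15A alone passed that test among the 81.

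Several other families had the same sign. Nuclear-encoded subunits of oxidative phosphorylation had a median of -0.18 over 79 genes, and both RBI2 libraries were below both CX-5461 libraries for 56 of them (70.9%, against 18.1% of all genes). Their examples NDUFA1, of complex I, and COX5B, of complex IV, had differences of -0.45 and -0.43, and NDUFV3 had the highest at 0.07. The 79 mitochondrial ribosomal protein genes had a median of -0.13, with 48 below (60.8%) and 0 above, against 18.1% and 23% of all genes. MRPL14 (-0.43) and MRPL42 (0.09) were their extremes. The 46 proteasome subunits also had a median of -0.13, with 29 below (63.0%) and 2 above (4.35%), from PSMB9 of the immunoproteasome (-0.61) to PSMD11 (0.05). No member of these lists passed in the edgeR fit reported here. When genes with low counts were not filtered out, 1 gene of each list (of 80, 79 and 47) passed as lower by edgeR at any fold. That setting called more genes over all genes too, as counted in the section on processing, so these calls are no result about the lists. Without CX-5461 replicate 2 the medians were -0.10, -0.07 and -0.08. With GC content and length fitted out they were -0.12, -0.09 and -0.11, against -0.02 over all genes. Their median transcript lengths were 642, 1016 and 1170 bases. Coding genes outside the cytosolic ribosomal proteins had medians of -0.17 from 500 to 750 bases (51.9% below) and -0.13 from 750 to 1000 bases (41.3%). From 1000 to 1500 bases it was -0.07 (32.1%). The gap between these lists and genes of their length was not tested.

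With all 4 libraries, genes that act in making ribosomes and in translation had medians smaller in size than those of the lists above. This gap was not tested. Without CX-5461 replicate 2 the tRNA synthetases and the mitochondrial ribosomal proteins both stood at -0.07. The 121 ribosome biogenesis factors had a median of -0.09, with 50 below (41.3%, against 18.1% of all genes) and 10 above (8.26%, against 23%), from SENP3 (-0.71) and NOP2 (-0.61) to NOL9. The SENP3 and NOP2 values rested on CX-5461 replicate 2: NOP2 stood at 66.7 and 54.2 CPM with RBI2 and 62.5 and 122 CPM with CX-5461. GNL3L, a nucleolar GTPase, stood at 249 and 251 CPM with RBI2 against 178 and 193 CPM with CX-5461. The 19 genes of the Pol I machinery had a median of -0.03, with 6 above (31.6%) and 3 below (15.8%), against 23% and 18.1% of all genes. POLR1A, its largest subunit, stood at 236 and 233 CPM with RBI2 and 196 and 184 CPM with CX-5461. The medians of 53 initiation factors and 20 cytosolic tRNA synthetases were -0.06 and -0.10. The scaffold EIF4G1 was among the higher ones, at 0.29. Without CX-5461 replicate 2 the medians of the ribosome biogenesis factors and the Pol I machinery were -0.05 and -0.01, those of the initiation factors and tRNA synthetases were -0.05 and -0.07, and without replicate 1 that of the Pol I machinery was 0.06.

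With all 4 libraries, the genes of RNA decay, a subject of the study, had medians near 0. The TRAMP complex and nuclear exosome had a median of -0.03 over 24 genes, with 4 above (16.7%, against 23% of all genes) and 9 below (37.5%, against 18.1%). Proteins that act on poly(A) tails had a median of 0.03 over 30 genes. The 33 snoRNA host genes had a median of -0.13 here, but 0.30 at 10 min and 0.17 at 120 min. Without CX-5461 replicate 2 the medians of these 3 lists at 30 min were -0.08, -0.03 and -0.05. In that setting the TRAMP complex and nuclear exosome thus had a median close to that of the proteasome subunits (-0.08). The 51 mitotic genes had a median of -0.09, with 22 below (43.1%) and 2 above (3.92%), and here the median without CX-5461 replicate 2 was -0.15. CENPE, a kinetochore motor, stood at 116 and 117 CPM with RBI2 and 226 and 188 CPM with CX-5461. The p53 target genes, with a median of -0.04 over 29, and the immediate early genes, with 0.05 over 32, lay near the median of all genes, and without CX-5461 replicate 2 these medians were -0.0029 and 0.07.

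The differences of coding genes followed transcript length. Outside the ribosomal proteins, the median ran from -0.20 at up to 500 bases to 0.13 over 5000 bases. The difference between the CX-5461 replicates, replicate 1 minus replicate 2, ran from -0.19 to 0.24 over the same classes. Between the RBI2 replicates it stayed between -0.03 and 0.01. Without CX-5461 replicate 2 the medians were -0.11 at up to 500 bases, -0.07 from 500 to 750 bases and between -0.03 and 0.02 in the longer classes. A gradient of the same direction was present at the label 10 min, from -0.11 at up to 500 bases to 0.14 over 5000 bases, and one of the opposite direction at 120 min, from 0.08 to -0.13. The part of these gradients in the family differences was not tested beyond these values.

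Ribosomal protein genes were lower than other coding genes of their own length. In the class from 500 to 750 bases, the median was -0.25 for 44 ribosomal protein genes and -0.17 for 389 others. Without CX-5461 replicate 2 these medians were -0.13 and -0.07. With all 4 libraries, both RBI2 libraries lay below both CX-5461 libraries for 86.4% of these ribosomal protein genes and 51.9% of the others. Among the 155 others with a mean over 50 CPM, the share was 67.7% and the median -0.18. With GC content and length fitted out of each library, the median over all 81 was -0.18, with 78 lower (56.4% of all genes) and 3 higher, and the median over all genes tested moved from 0.01 to -0.02. These gaps between medians and between shares were not tested.

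**Figure D3:**
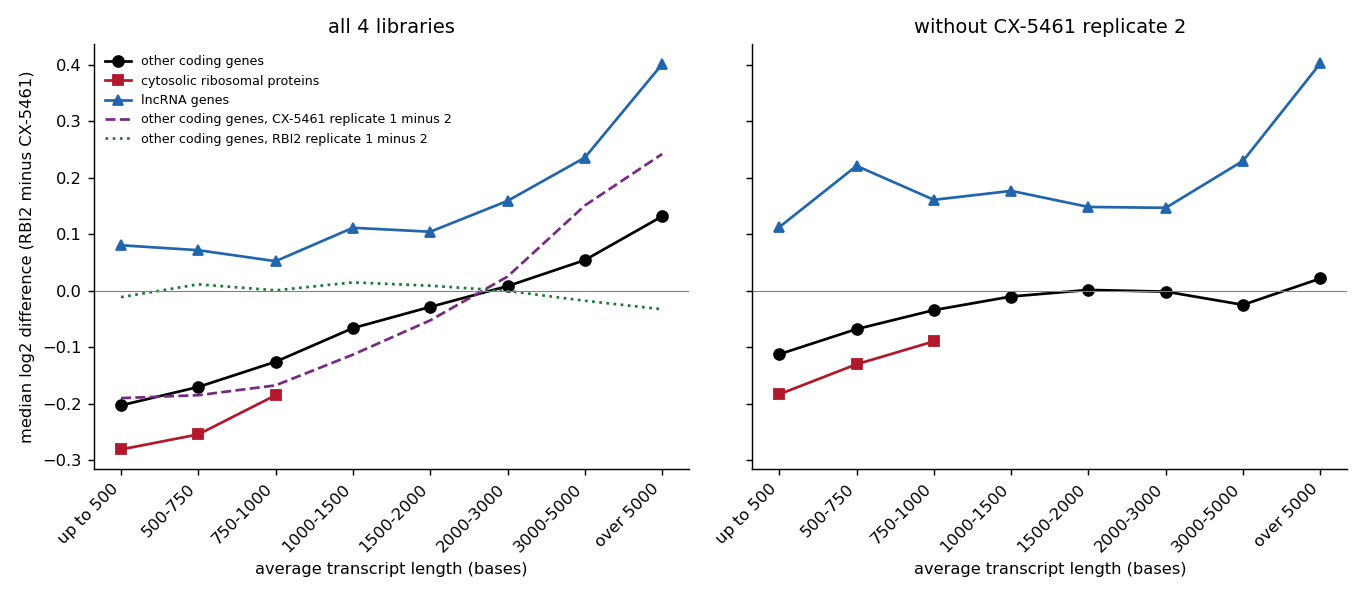
Median log2 difference, RBI2 minus CX-5461, by average transcript length class in bases, with all 4 libraries (left) and without CX-5461 replicate 2 (right); dashed and dotted lines on the left are differences between replicates of 1 compound. Coding genes ran from -0.20 to 0.13 on the left and were nearer 0 on the right, while lncRNA genes were above 0 in every class in both panels.

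The lncRNA genes, long transcripts without a known protein, lay the other way. Of 2184 tested, 1407 were higher with RBI2, against 51.7% of all genes, and 771 lower, with a median of 0.14. Both RBI2 libraries were above both CX-5461 libraries for 680 of them, against 23% of all genes, and below for 235, against 18.1%. At an unadjusted p under 0.05, 187 were higher (8.56%, against 5.48% of all genes) and 16 lower (0.733%, against 2.31%). ENSG00000258964 alone passed the adjusted test in the edgeR fit reported here. By edgeR with only the 4 libraries, 6 of 1676 lncRNA genes passed as higher and 1 as lower at any fold (0.3% of all genes). Without the control libraries, 4 of 2191 passed as higher and 1 as lower (0.123% of all genes). DESeq2 gave an adjusted p to 597 of the lncRNA genes, and 5 passed as higher and 1 as lower at any fold (0.407% of all genes with such a p). Unlike the ribosomal proteins, the median was larger without CX-5461 replicate 2 (0.18) and smaller without replicate 1 (0.09). Both RBI2 libraries lay above CX-5461 replicate 1 for 1074 of the lncRNA genes, against 38.8% of all genes. With all 4 libraries the median was above 0 in every length class, from 0.05 to 0.40, and without CX-5461 replicate 1 it was below 0 in the 3 classes of up to 1000 bases, the lowest at -0.05.

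The lncRNA genes differed by label in the same direction. Their summed level was 12985 and 12595 CPM with RBI2 and 11545 and 11685 CPM with CX-5461. Over all labels, the 6 RBI2 libraries held at least 12212 CPM and the 6 CX-5461 libraries at most 11685, so the compounds did not overlap. The control libraries, at 12453 and 12965 CPM, lay in the range of RBI2. As an unscaled share of reads in lncRNA transcripts, the control replicates held 1.26% and 1.107%. By that measure the RBI2 libraries held at least 1.236% and the CX-5461 libraries at most 1.195%, so control replicate 2 lay with CX-5461. The median difference was 0.16 at 10 min, where 44 genes passed as higher and 3 as lower by edgeR at any fold, and 0.29 at 120 min, where 181 passed as higher and 7 as lower. In all genes tested, 2.23% and 5.28% passed as higher at these labels, and 0.83% and 10.9% as lower. At 10 min the share of lncRNA genes that passed as higher was thus no larger than in all genes.

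Among lncRNA genes of at least 10 CPM, 191 in all, the median was 0.07, and among the 965 of up to 1 CPM it was 0.24. Coding genes had the same order, with -0.01 over 10 CPM and 0.11 at up to 1 CPM. MIR23AHG, the host of a microRNA cluster, had the largest difference of those at 10 CPM or more. It stood at 33.4 and 30.8 CPM with RBI2 and 18.1 and 18.6 CPM with CX-5461, a log2 difference of 0.80 ± 0.24 (SE, adjusted p = 0.457, edgeR). RDUR had a difference of -0.49 at the other end, and its CX-5461 libraries were apart, at 27.8 and 18.6 CPM. The 424 antisense lncRNAs had a median of 0.13 with and without CX-5461 replicate 2, and the 181 lncRNAs from divergent promoters one of 0.05, or 0.13 without CX-5461 replicate 2 and -0.07 without replicate 1. WARS2-AS1 (0.54) was an example of the former. The library kit keeps the strand, but whether counting used it is not given in the sources used here.

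**Figure D4:**
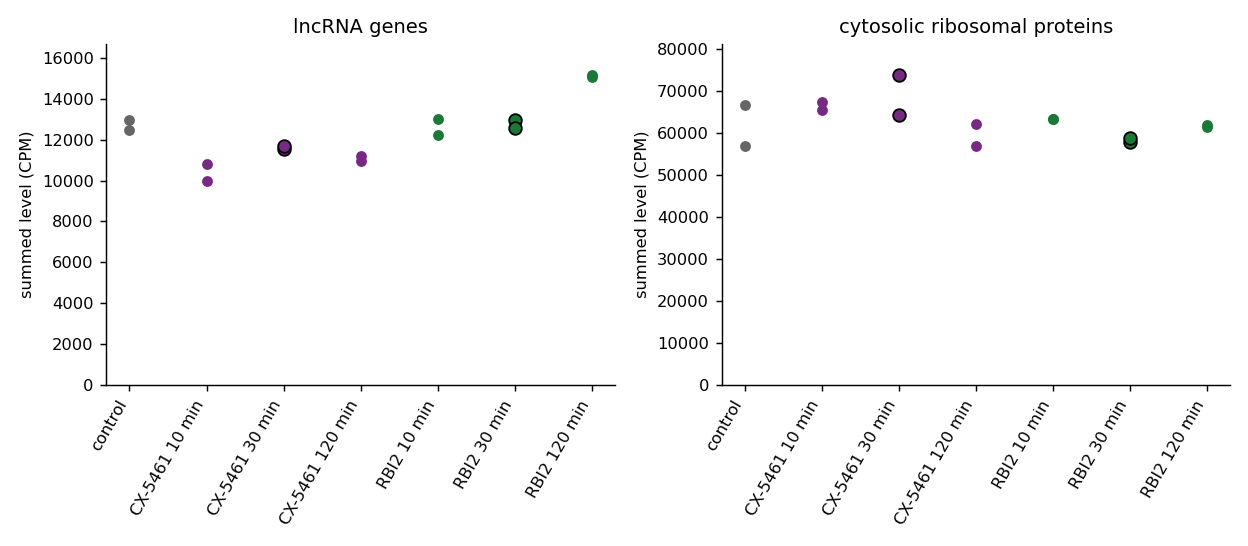
Summed level in CPM (linear axis from 0) of lncRNA genes (left) and of cytosolic ribosomal protein genes (right) in each of the 14 libraries; black outlines mark the label 30 min. The lncRNA sums of all 6 RBI2 libraries lay above those of all 6 CX-5461 libraries, while the ribosomal protein sum was highest in CX-5461 replicate 2 at 30 min, at 73903 CPM.

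Further lists were on the higher side with smaller counts. Of 19 collagens, 18 had a higher fitted level, both RBI2 libraries were above for 10 (52.6%, against 23% of all genes) and below for 0, and the median was 0.17, or 0.12 without CX-5461 replicate 2. With GC content and length fitted out the collagen median was 0.10. COL6A3, a chain of collagen VI, stood at 84.4 and 92.5 CPM with RBI2 and 43.1 and 43.1 CPM with CX-5461, with an adjusted p of 0.535 by edgeR. The 58 lysine methyltransferases and demethylases had a median of 0.09 that was -0.01 without CX-5461 replicate 2. Their example KMT2D, a histone H3 methyltransferase with a long transcript, stood at 78.7 and 79.2 CPM with RBI2 and 47.2 and 35.3 CPM with CX-5461. The 450 numbered zinc finger genes had a median of 0.05 with 136 above (30.2%, against 23% of all genes) and 50 below (11.1%, against 18.1%), and without that library the median was 0.00. ZNF587 had the largest difference of those with a mean of at least 10 CPM, 0.81. The 24 replication-dependent histones had a median of 0.17, with 6 above and 6 below (25.0% each). Their median was 0.23 without CX-5461 replicate 2 and -0.02 without replicate 1.

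**Figure D5:**
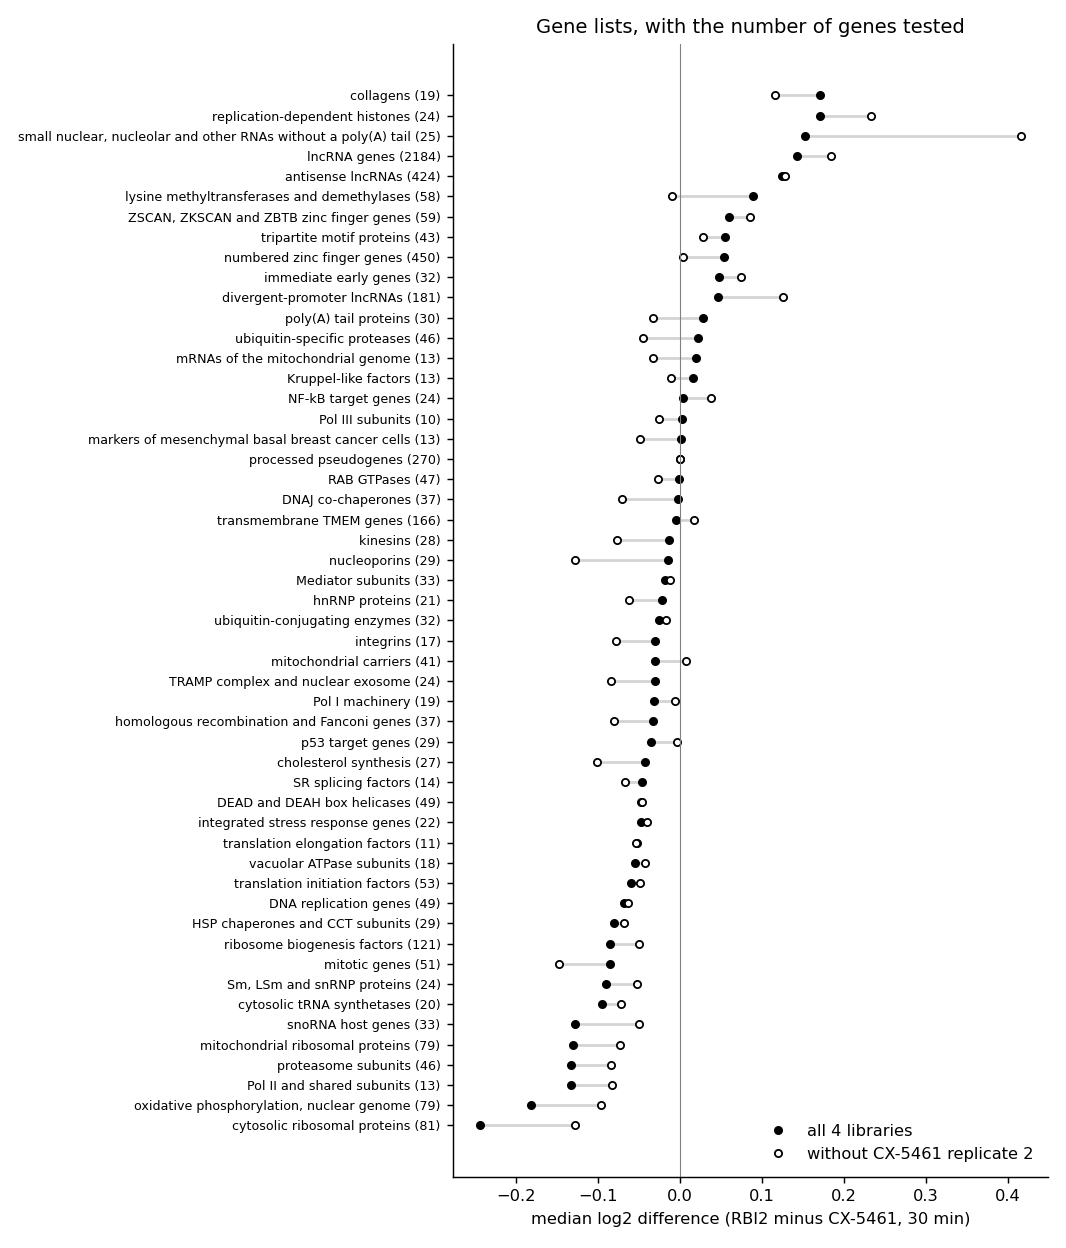
Median log2 difference, RBI2 minus CX-5461 at 30 min, of each gene list with at least 10 genes tested (number in brackets); filled points use all 4 libraries and open points leave out CX-5461 replicate 2. Cytosolic ribosomal proteins were lowest at -0.24 and stayed below 0, lncRNA genes stayed above 0, and 9 of the 52 lists changed sign.

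The difference at 30 min was set against those at the other labels, which use other libraries. Against the mean of the labels 10 min and 120 min, 25 genes passed at any fold (0.162%; edgeR quasi-likelihood test, Benjamini-Hochberg adjustment), 22 of them lower (0.143%) and 3 higher (0.0194%) at 30 min. Most had a large difference at 10 min and little at 30 min. MYC had a log2 difference of 2.30 at 10 min, -0.03 at 30 min and 0.15 at 120 min, and CCN1, a matricellular protein gene, 2.98, 0.26 and 0.54. ID2, an inhibitor of helix-loop-helix factors, had -2.81, -0.33 and -1.78. Against the 120 min label alone 0 genes passed by edgeR, with 2343 at an unadjusted p under 0.05 (15.2%).

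Many of the small differences had the same sign at the other labels. Of the 845 genes higher at an unadjusted p under 0.05, 84.3% were also higher at 10 min and 89.5% at 120 min. Of the 357 lower ones, 77.6% were lower at 10 min and 56.0% at 120 min. Over all genes tested these shares were 62.2% and 60.7%. Direct tests at the other labels called more genes, 160 at 10 min (1.04%) and 258 at 120 min (1.67%), at the same thresholds.

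Each compound was also set against the control at 30 min. With RBI2, 11 genes passed at any fold (0.0713%), among them FOXK1, CASTOR2, RPS15A, RPL9, RFC1 and ENSG00000258964. With CX-5461, 0 genes passed by edgeR, with 3536 at an unadjusted p under 0.05 (22.9%). Both comparisons use the same control libraries, of which replicate 2 had the high mitochondrial share and the length difference of -0.61. The control replicates lay over 2-fold apart for 1412 genes (9.15%), against 2.99% to 4.08% of genes in the other groups. The 13 mRNAs of the mitochondrial genome had a median of -0.997 against the control with RBI2 and -1.07 with CX-5461, and 0.02 between the compounds, or -0.03 without CX-5461 replicate 2.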

How the data were processed

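RNA-seq was analysed in 14 libraries of MDA-MB-231 cells. The authors removed reads that aligned to the rDNA repeat and quantified transcripts with Salmon 1.3.0. The deposited estimated counts are per transcript and not normalized, and the TPM values deposited by the authors were not used. Transcripts were matched to GENCODE release 44 (225662 of 228754 matched), and estimated counts were summed per gene and rounded. Counts were analysed with edgeR 4.0.16 in R 4.3.3: TMM scaling, filterByExpr (minimum count 10), 1 coefficient for each of 7 groups over all 14 libraries, quasi-likelihood F test (two-sided), Benjamini-Hochberg adjustment over 15426 genes. The pooled spread was a coefficient of variation of 12.3%. The test was tested on simulated data, and the outcome is not reported here. Alternatives included DESeq2 1.42.0, other scaling, length and GC corrections, and each library left out.

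The members and the 54 gene lists were chosen with earlier results of these data known. Named genes were those called, then up to 12 in each direction with the smallest p, a mean of 5 CPM or more in whichever group was higher, and no overlap; PABPC1, ATXN2 and GAPDH; and, in each list described, up to 2 members at either extreme with a mean of at least 10 CPM. RPS10, RPS3, RPS12, the 7 overlapping ribosomal protein genes, and the genes named from the difference between labels were named after their values were seen. The floor of 3 counts covers counting error only, while SEs come from the fitted model and carry the spread between libraries. DESeq2 gave an adjusted p to 11538 genes. A gene the rule names is not reported here. RPS20, which it also names, had a log2 difference of -0.33.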

Additional observations from a re-analysis of the deposited data

Results flagged for a closer look

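For 5 genes named above, the 30 min difference between the compounds differed from the mean of those at 10 min and 120 min (edgeR quasi-likelihood test, Benjamini-Hochberg adjustment). Against the label 120 min alone 0 genes passed by edgeR. For RPS15A the 30 min difference was lower than the mean of those at 10 min and 120 min by a log2 value of -0.54 (adjusted p = 0.0435). For ENSG00000258964 the fitted value was -9.22 (adjusted p = 0.00746), which depends on how the absence of reads in both RBI2 libraries at 30 min is fitted and is no bound. For MYC, CCN1 and ID2 the values were -1.26 (adjusted p = 0.000274), -1.498 (7.2e-06) and 1.96 (0.000274), and these genes were named from this test. No group held enough libraries to test a single one as an outlier.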

How the results depend on the processing

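The 2 genes that passed became 196 without a filter on low counts, 23 with only the 4 libraries in the model, 7 without the control libraries, 10 by DESeq2 and 223 at an unadjusted p, and between 0 and 3 with 1 library left out. At any fold the count was 362 without the filter, 5 with the GC content and length correction, 43 with the 4 libraries, 19 without the control libraries, 47 by DESeq2 and between 0 and 3 with 1 library left out. Same-numbered replicates of the compounds did not deviate together (correlation -0.007) and share only a number. With the replicate number as a block the counts were 2 and 2, with the block and the GC content and length correction 4 at any fold, and the 25 genes that differed between labels became 16. Against the label 10 min alone that count was 122 and against 120 min alone 0. With 1 library left out, medians ranged from -0.39 to -0.13 for cytosolic ribosomal proteins, -0.25 to -0.073 for mitochondrial ribosomal proteins, -0.31 to -0.096 for oxidative phosphorylation, -0.23 to -0.084 for proteasome subunits and 0.092 to 0.18 for lncRNA genes. The lncRNA median was 0.11 with the 4 libraries and 0.069 at 10 CPM or more, and the lncRNA genes above CX-5461 numbered 1074 without CX-5461 replicate 2, an alternative chosen after seeing the data, since fewer libraries must then be exceeded. GABPB1-AS1 turned to -0.45 and PABPC1 to 0.053 with the length offset, and GAPDH to 0.0056 without CX-5461 replicate 2; the cause was not tested. None of these medians changed sign in the 14 settings of each. With 2 replicates, differences of the size seen in the families were called for few genes or none, depending on the setting: of the 81 cytosolic ribosomal protein genes, 0 passed at any fold as reported, 11 without a filter on low counts, 6 by DESeq2, 2 without the control libraries and 0 with any 1 library left out.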

Other observations

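Transcripts that lack a poly(A) tail, such as small nuclear and signal recognition particle RNAs, had a median log2 difference of 0.15 over 25 genes, or 0.42 without CX-5461 replicate 2 and -0.11 without replicate 1. Over 14 settings the median ranged from -0.18 to 0.81 and changed sign in 2, and at the label 120 min it was 1.66. RN7SL2, an RNA of the signal recognition particle, stood at 25.5 and 16.2 CPM with RBI2 and 9.65 and 12.5 CPM with CX-5461 at 30 min (adjusted p = 0.634, edgeR). CCNG1, a p53 target, stood at 14.8 and 9.11 CPM with RBI2 and 20.2 and 43.5 CPM with CX-5461, so its log2 difference of -1.40 rested on libraries that were themselves far apart.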
